A study of Homo sapiens with 12 samples.

Results

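Transcripts of 9 genes that encode the stress kinase ASK1, its close relative ASK2 and the proteins that restrain or recruit ASK1 were followed in 12 RNA-seq libraries of MDA-MB-231 cells. The genes were picked by symbol from the 19907 symbols in the data. All 9 were among the 18579 genes that had at least 10 reads summed over the 12 libraries and were tested. They were MAP3K5 (ASK1), MAP3K6 (ASK2), the thioredoxin genes TXN and TXN2, the thioredoxin-binding TXNIP, the thioredoxin reductase TXNRD1, the adaptors TRAF2 and TRAF6, and the phosphatase PPP5C.

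MDA-MB-231 is an established human triple-negative breast cancer (TNBC) line of mesenchymal character that expresses the glucocorticoid receptor (GR, gene NR3C1). The wt-GR cells were a clone from the editing experiment in which GR was left intact. The S134A-GR cells were clone #1, with Ser134 exchanged for alanine on both alleles by CRISPR/Cas9. Before harvest, all cells spent 18 h in IMEM with 1% DCC, which is charcoal-stripped serum, and then 6 h with TGFβ1 (10 ng/mL) or vehicle. No glucocorticoid is named for any group. Each of the 4 groups had 3 libraries. Each line is 1 clone, so the receptor change and other differences between the clones cannot be told apart. The sources do not say whether replicates were separate cultures, so p-values measure only the spread between these libraries.

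ASK1 is a mitogen-activated protein kinase kinase kinase at the top of the JNK and p38 MAPK cascades, and it responds to oxidative stress and inflammatory cytokines. Reduced thioredoxin binds its N-terminal region and keeps it inactive, and oxidation of thioredoxin releases it, after which TRAF2 and TRAF6 join the complex and promote its activation. Thioredoxin reductase returns thioredoxin to the reduced form, TXNIP binds reduced thioredoxin, and the phosphatase PP5 (PPP5C) removes the activating phosphate from ASK1. RNA levels do not report the activity or redox state of these proteins.

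The libraries held 56362036 to 129832227 reads each, as recovered from the normalized values. This is more than the average depth stated in the sources, which do not say whether the mates of a read pair were counted separately. The values below are counts divided by a DESeq2 size factor for each library. Markers were mixed. VIM was at 422927 ± 3379 normalized counts (mean ± SD, n = 3) in the wt-GR vehicle group, and group means of ESR1 and CDH1 were between 0.702 and 9.37. Other luminal markers were expressed in the wt-GR vehicle group, such as KRT8 (63025), KRT19 (4158), EPCAM (1024) and GATA3 (808). ERBB2 was at 8891 there. The clones also differed in markers. NR3C1 was lower in S134A-GR (11771 ± 1186 against 8815 ± 259 in vehicle, log2 fold change −0.41, limma FDR = 0.00012). This is RNA: by Western blot the study reported equal total GR protein in its wt-GR and S134A-GR lines. In vehicle 25.0% and 26.5% of all genes tested were higher and lower in S134A-GR. Of 12 luminal epithelial markers 7 were lower and 2 higher, and of 7 mesenchymal markers 3 were lower and 1 higher. AGR2 fell from 1174 ± 35.6 to 7.4 ± 7.54 normalized counts, and TFF3 was listed at 0 in every TGFβ1-treated S134A-GR library. In vehicle, the summed luminal markers ranged from 104254 to 112208 in wt-GR and from 96516 to 102689 in S134A-GR libraries, and the summed mesenchymal markers from 686730 to 736513 and from 645045 to 652590. Their part in the differences given here was not tested. In bulk RNA, fewer cells of a type and less RNA per cell cannot be told apart.

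Per exon length, TXN was the most abundant of the 9 genes in all 4 groups, and MAP3K5 and TRAF6 were the least. The length is that of all annotated exons of a gene, merged over its transcripts, which can exceed the transcript expressed. The order depends on it: in wt-GR in vehicle PPP5C had more counts than TXN2 (9989 against 6525) but fewer per kb. In the wt-GR vehicle group TXN reached 27799 ± 1377 normalized counts per kb of exon, TXNRD1 5532 ± 94.5, TXNIP 4205 ± 140 and TXN2 3955 ± 195. PPP5C followed at 1409 ± 84.3, TRAF2 at 944 ± 16.2, MAP3K6 at 539 ± 10.6, MAP3K5 at 392 ± 24.6 and TRAF6 at 160 ± 11.1. Of the neighbours in this order only TXNIP and TXN2 overlapped, in the vehicle groups of both lines. MAP3K5 changed its place: with TGFβ1 in S134A-GR cells it was the lowest of the 9, at 135 ± 7.87 per kb against 151 ± 10.3 for TRAF6. In counts not divided by length, MAP3K5 was already below TRAF6 in S134A-GR in vehicle (1005 against 1145). Its highest group mean was 2.91 times its lowest, whereas TXN2 and PPP5C spanned 1.02 and 1.04 times.

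**Figure D1:**
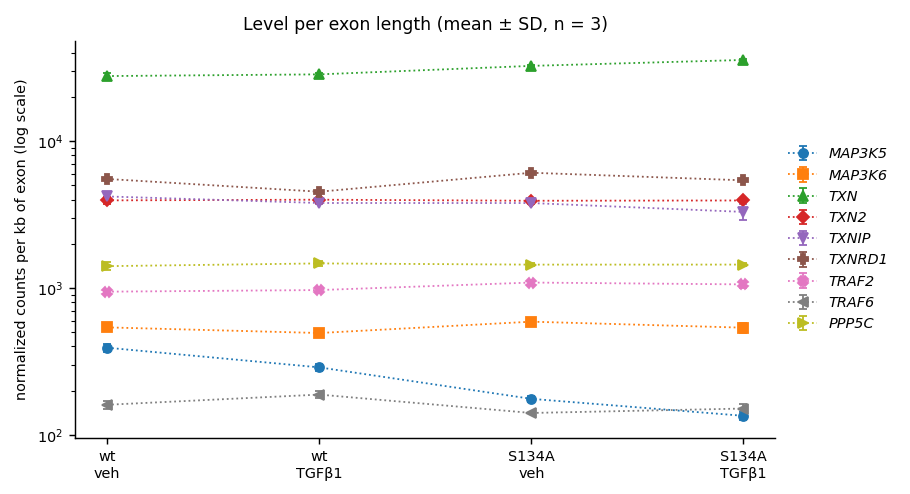
Normalized counts per kb of exon (log scale) of the 9 genes in the 4 groups; symbols are means, error bars the SD of 3 libraries, and dotted lines only join the points of a gene. MAP3K5 falls from 392 to 135 per kb across the groups, below TRAF6 in the last, while TXN lies between 27799 and 35789.

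MAP3K5, the gene of ASK1, lies at chromosome 6, 136557046 to 136793097, minus strand (GRCh38, GENCODE v44). The vehicle-treated wt-GR libraries held 2333, 2308 and 2079 normalized counts, and the TGFβ1-treated ones 1556, 1752 and 1630. The vehicle-treated S134A-GR libraries held 958, 993 and 1063, and the TGFβ1-treated ones 800, 792 and 718. No groups overlapped, and every S134A-GR library was below every wt-GR library. MAP3K5 was 2.23-fold lower in S134A-GR in vehicle (log2 fold change −1.16, SE 0.07, limma FDR = 8.74e-09) and 2.14-fold lower with TGFβ1 (−1.09, SE 0.07, FDR = 1.64e-08). The study singled out MAP3K5 from these same libraries, so this contrast is not independent evidence. Apart from the libraries, the study reported less MAP3K5 protein in both of its S134A-GR clones. It also reported less MAP3K5 mRNA by qRT-PCR in clone #1.

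TGFβ1 lowered MAP3K5 in both lines. MAP3K5 decreased by 26.5% in wt-GR cells (log2 fold change −0.44, SE 0.07, limma FDR = 0.000321) and decreased by 23.4% in S134A-GR cells (−0.38, SE 0.07, FDR = 0.00121). The 2 responses differed by 0.06 on the log2 scale, with a 95% confidence interval of −0.15 to 0.27 (FDR = 0.88). In each of the 4 contrasts MAP3K5 was past an FDR of 0.05 in all 22 alternative settings that used the FDR alone.

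**Figure D2:**
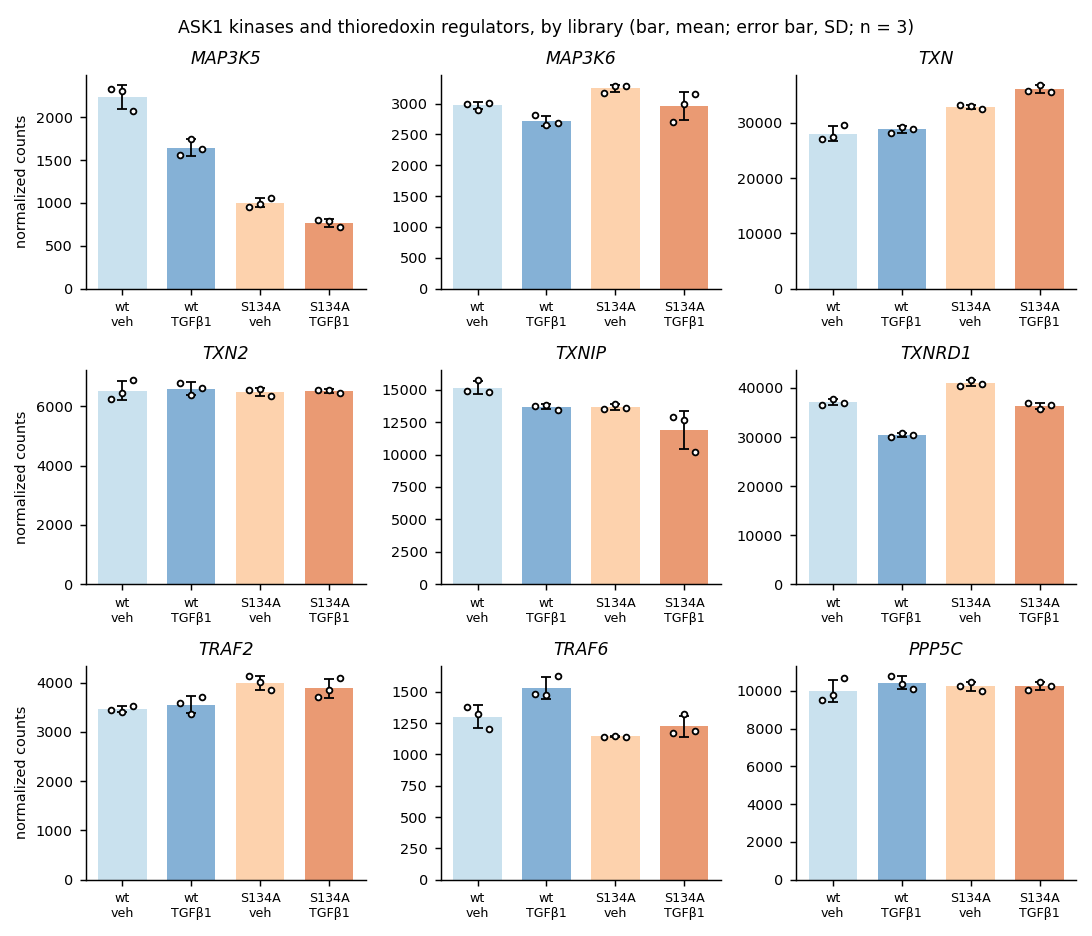
Normalized counts of the 9 genes in the 12 libraries; bars are means, error bars the SD and open points the 3 libraries of each group, and every y axis starts at 0. MAP3K5 steps down over the groups without overlap, TXN is higher in all S134A-GR libraries, and replicate 3 of S134A-GR with TGFβ1 stands low for TXNIP, at 10174.

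RefSeq promoter windows, which run from 250 bases before a start site to 50 after it, were found for 7 of the 9 genes, 10 windows in all. They were searched on both strands for CACGTG (E-box), TGACNNNGC (antioxidant response element core), AGAACA (1 of the 2 hexamers of a glucocorticoid response element) and CAGAC (short SMAD binding element). These letters occur in 7.26%, 13.3%, 14.8% and 45.3% of all 35116 windows. The 10 windows held no E-box, and the windows of MAP3K5, MAP3K6, TXN, TRAF2 and TRAF6 held none of the motifs. The only short SMAD binding element was in 1 of the 2 TXNIP windows, chr1:145995695-145995994, at −127 from its start site. Both windows of MAP3K5 are shown, since its RNA differed most among the 9 genes, and stand in lower case throughout because no motif was matched. No match says only that these letters are not in this window. They are chr6:136793042-136793341 and chr6:136792428-136792727 (GRCh38.p14, minus strand), with 63.3% and 75% G or C.
MAP3K5, upstream start: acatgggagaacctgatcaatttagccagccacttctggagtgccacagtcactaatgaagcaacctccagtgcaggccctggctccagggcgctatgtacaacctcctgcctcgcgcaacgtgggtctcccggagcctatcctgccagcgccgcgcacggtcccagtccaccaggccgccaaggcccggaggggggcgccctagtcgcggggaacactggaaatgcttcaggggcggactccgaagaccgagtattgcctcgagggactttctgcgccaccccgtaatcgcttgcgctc
MAP3K5, downstream start: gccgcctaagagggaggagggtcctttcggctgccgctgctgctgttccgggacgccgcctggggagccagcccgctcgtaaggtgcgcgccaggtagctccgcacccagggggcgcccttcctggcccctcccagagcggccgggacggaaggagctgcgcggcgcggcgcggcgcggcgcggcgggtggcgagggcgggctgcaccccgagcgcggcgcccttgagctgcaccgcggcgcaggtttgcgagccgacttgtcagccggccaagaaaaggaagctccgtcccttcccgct

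The 5 tested genes on each side of MAP3K5, within 2.6 Mb, were read beside it. In vehicle 6 of these 10 were lower in S134A-GR, 1 was higher and 3 did not pass. Of all genes 26.5% were lower and 25.0% higher. With TGFβ1 4 were lower and 1 higher, against 25.7% and 23.1% of all genes. PDE7B, a phosphodiesterase gene, fell from 504 to 86.1 normalized counts (log2 fold change −2.55, limma FDR = 5.12e-07). IFNGR1, an interferon gamma receptor gene, fell from 2739 to 1925 (−0.51, limma FDR = 6.28e-07). MAP7, the nearest on one side, was at 35.5 in wt-GR and at 0.943 in S134A-GR, below the floor of 3 reads (2.15 to 4.89 normalized counts per library). PEX7, the nearest on the other side, was at 472 against 406 and did not pass (−0.21, limma FDR = 0.07). TNFAIP3, the gene of the NF-κB inhibitor A20, was higher in S134A-GR (429 against 559, 0.38, limma FDR = 0.00588). For TGFβ1, 2 of the 10 passed in wt-GR cells, both lower, and 0 in S134A-GR cells, against 21.0% and 18.7% of all genes.

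**Figure D3:**
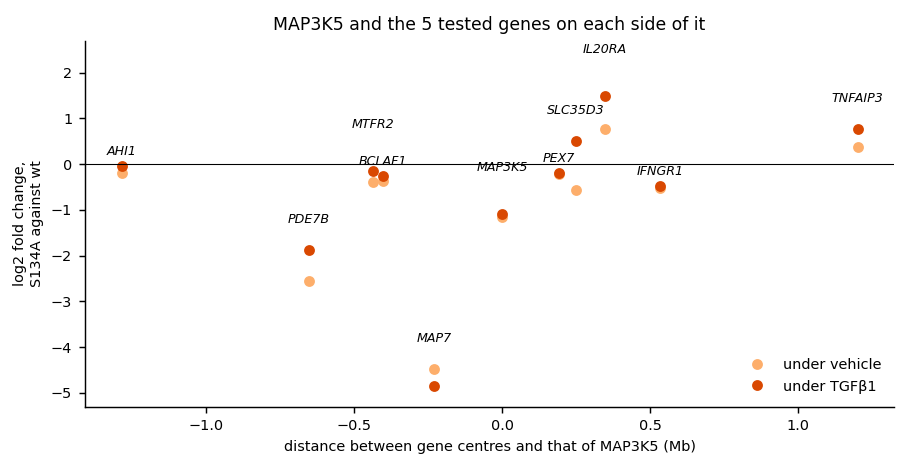
Log2 fold change between S134A-GR and wt-GR for MAP3K5 and the 5 tested genes on each side, against the distance of gene centres from that of MAP3K5 (Mb), in vehicle and with TGFβ1. PDE7B and MAP7 lie below MAP3K5 (−1.16 and −1.09) and TNFAIP3 above 0; MAP7 was under the floor of 3 reads in S134A-GR, SLC35D3 was under it in the vehicle groups of both lines, and their points depend on the pseudocount.

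MAP3K6 encodes ASK2, which forms a complex with ASK1 (chromosome 1, 27355184 to 27366961, minus strand). Its wt-GR libraries held 2996, 2902 and 3009 normalized counts in vehicle and 2812, 2652 and 2692 with TGFβ1. Its S134A-GR libraries held 3179, 3279 and 3283 in vehicle and 2710, 2997 and 3161 with TGFβ1. The lines did not overlap in vehicle and overlapped with TGFβ1. No contrast passed the limma test: the log2 fold change between the lines was 0.13 in vehicle (FDR = 0.0519) and 0.12 with TGFβ1 (FDR = 0.0761), and that for TGFβ1 was −0.13 in wt-GR (FDR = 0.105) and −0.14 in S134A-GR cells (FDR = 0.0836). Without replicate 1 of S134A-GR with TGFβ1, the first 3 of these reached an FDR of 0.0167, 0.00522 and 0.0391 in limma. Without replicate 3 of that group the first and the last reached 0.032 and 0.0253. The value between the lines in vehicle also passed with edgeR's expression filter (limma FDR = 0.0467) and in a fit of the 2 groups alone (0.0193). Per kb, MAP3K6 was 1.38 ± 0.107 times MAP3K5 in wt-GR in vehicle and 1.72 ± 0.152 times with TGFβ1, and 3.36 ± 0.133 and 4.0 ± 0.53 times in S134A-GR.

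TXN encodes cytosolic thioredoxin, the inhibitor of ASK1 (chromosome 9, 110243810 to 110256507, minus strand). Its wt-GR libraries held 27123, 27435 and 29673 normalized counts in vehicle and 28222, 29356 and 28930 with TGFβ1. Its S134A-GR libraries held 33224, 33031 and 32567 in vehicle and 35830, 36923 and 35688 with TGFβ1. All 6 S134A-GR libraries were above all 6 wt-GR libraries. TXN was 17.4% higher in S134A-GR in vehicle (log2 fold change 0.23, SE 0.04, limma FDR = 8.94e-05) and 25.4% higher with TGFβ1 (0.33, SE 0.04, FDR = 4.07e-06). In S134A-GR cells TGFβ1 raised TXN by 9.72% (0.13, limma FDR = 0.0183). This call was lost without replicate 2 or 3 of their vehicle group (FDR = 0.0506 and 0.07) and without replicate 2 of their TGFβ1 group (FDR = 0.0713). In wt-GR cells the value for TGFβ1 was 0.04 (limma FDR = 0.509), and the responses differed by 0.09 (95% confidence interval −0.02 to 0.20, FDR = 0.596).

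TXN2 encodes the mitochondrial thioredoxin (chromosome 22, 36467046 to 36481640, minus strand). Its 12 libraries ranged from 6247 to 6878 normalized counts, and the groups overlapped in every contrast. The log2 fold changes of the 4 contrasts lay between −0.02 and 0.02, and the 95% confidence interval between the lines in vehicle was −0.09 to 0.08.

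TXNRD1 encodes the cytosolic thioredoxin reductase, a selenoprotein that uses NADPH (chromosome 12, 104215779 to 104350307, plus strand). Its wt-GR libraries held 36547, 37802 and 37019 normalized counts in vehicle and 30026, 30726 and 30442 with TGFβ1. Its S134A-GR libraries held 40336, 41575 and 40883 in vehicle and 36923, 35644 and 36473 with TGFβ1. Treatments did not overlap within a line, nor lines within a treatment. TXNRD1 decreased by 18.1% with TGFβ1 in wt-GR cells (log2 fold change −0.29, SE 0.03, limma FDR = 5.59e-06) and decreased by 11.2% in S134A-GR cells (−0.17, SE 0.03, FDR = 0.000779). It was 10.3% higher in S134A-GR in vehicle (0.14, SE 0.03, limma FDR = 0.000944) and 19.6% higher with TGFβ1 (0.26, SE 0.03, FDR = 4.89e-06). The responses differed by 0.12 (95% confidence interval 0.03 to 0.21), with an unadjusted limma p of 0.0133 and FDR = 0.375, which did not pass.

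The 2 promoter windows of TXNRD1 are shown because both hold the antioxidant response element core, to which the factor NRF2 binds. They are chr12:104215529-104215828 and chr12:104286782-104287081 (GRCh38.p14, plus strand). Capitals mark that core on either strand and, at base 30 of the second window, a single AGAACA hexamer on the reverse strand.
TXNRD1, first start: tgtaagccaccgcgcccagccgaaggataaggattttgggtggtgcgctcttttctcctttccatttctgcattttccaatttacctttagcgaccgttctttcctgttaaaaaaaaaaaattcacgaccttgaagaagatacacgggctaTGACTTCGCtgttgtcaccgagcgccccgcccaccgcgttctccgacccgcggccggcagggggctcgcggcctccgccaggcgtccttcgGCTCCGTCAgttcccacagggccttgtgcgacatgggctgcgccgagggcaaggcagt
TXNRD1, second start: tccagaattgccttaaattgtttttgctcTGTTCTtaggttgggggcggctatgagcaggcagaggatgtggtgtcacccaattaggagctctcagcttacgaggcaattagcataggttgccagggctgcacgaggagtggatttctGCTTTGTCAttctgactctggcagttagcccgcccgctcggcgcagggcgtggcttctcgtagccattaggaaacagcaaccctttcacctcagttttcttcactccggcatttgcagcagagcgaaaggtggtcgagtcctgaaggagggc

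TXNIP encodes an alpha-arrestin that binds reduced thioredoxin (chromosome 1, 145992435 to 145996579, minus strand). Its wt-GR libraries held 14904, 15735 and 14827 normalized counts in vehicle and 13769, 13802 and 13462 with TGFβ1. Its S134A-GR libraries held 13480, 13924 and 13596 in vehicle and 12868, 12639 and 10174 with TGFβ1, the last of these well below the other two. Groups did not overlap in any of the 4 contrasts. With TGFβ1 the level decreased by 13.5% from wt-GR to S134A-GR (log2 fold change −0.21, SE 0.07, limma FDR = 0.018), a call lost without replicate 2 of wt-GR with TGFβ1 (FDR = 0.0517). Without replicate 3 of S134A-GR with TGFβ1 the log2 fold change was −0.10 (limma FDR = 0.0395). In vehicle the value was −0.15 (limma FDR = 0.078), and it passed with DESeq2 (FDR = 0.0495) and in a limma fit of the 2 groups alone (FDR = 0.00832).

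The response of TXNIP to TGFβ1 was −0.21 in S134A-GR (limma FDR = 0.0431) and −0.15 in wt-GR cells (FDR = 0.144). Without replicate 3 of S134A-GR with TGFβ1 the first became −0.10 (FDR = 0.0858), while the value in wt-GR cells reached FDR = 0.00589 and that between the lines in vehicle FDR = 0.00184. The call in S134A-GR cells was also lost without replicate 2 of wt-GR in vehicle (FDR = 0.0548), without replicate 1, 2 or 3 of wt-GR with TGFβ1 (0.059, 0.0579 and 0.0589) and without replicate 1, 2 or 3 of S134A-GR in vehicle (0.0885, 0.122 and 0.0959), where the log2 fold change was −0.22, −0.19 and −0.21. It was lost as well with edgeR and its RLE size factors (FDR = 0.0541) and in a limma fit of the 2 groups alone (FDR = 0.197), in which the value in wt-GR cells passed (FDR = 0.0289). Per kb, TXNIP was 0.152 ± 0.0106 times TXN in wt-GR in vehicle and 0.133 ± 0.00333 times with TGFβ1, and 0.116 ± 0.0023 and 0.0922 ± 0.0109 times in S134A-GR.

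The promoter window at the annotated start of TXNIP, chr1:145996530-145996829 (GRCh38.p14, minus strand), is shown because the factors MondoA and MLX are known to bind paired CACGAG elements in front of this gene. It held none of the 4 motifs. Capitals mark 2 copies of CACGAG that are 5 bases apart, a pattern searched after the sequence had been seen and found in 2 of the 35116 windows.
TXNIP: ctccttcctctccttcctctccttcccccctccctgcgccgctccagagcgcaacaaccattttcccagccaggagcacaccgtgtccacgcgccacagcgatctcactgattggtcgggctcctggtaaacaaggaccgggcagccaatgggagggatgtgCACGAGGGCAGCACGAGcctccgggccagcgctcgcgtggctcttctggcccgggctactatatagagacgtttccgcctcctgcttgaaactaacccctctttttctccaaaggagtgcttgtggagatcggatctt

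TRAF2 and TRAF6 encode adaptors and ubiquitin ligases that join the ASK1 complex, and they moved in opposite directions between the lines. TRAF2 (chromosome 9, 136881912 to 136926607, plus strand) had 3448, 3408 and 3525 normalized counts in the vehicle-treated wt-GR libraries and 4132, 4001 and 3845 in the vehicle-treated S134A-GR libraries. It was 15.3% higher in S134A-GR (log2 fold change 0.21, SE 0.05, limma FDR = 0.00242). With TGFβ1 the wt-GR (3575, 3371 and 3704) and S134A-GR libraries (3698, 3849 and 4090) overlapped. That contrast had a log2 fold change of 0.13 (limma FDR = 0.0409) and did not pass with limma-voom, in a fit of the 2 groups alone or with edgeR (edgeR FDR = 0.0585). It was also lost without replicate 2 of wt-GR in vehicle (0.0522), replicate 1 or 2 of wt-GR with TGFβ1 (0.0718 and 0.174), replicate 2 of S134A-GR in vehicle (0.053) and replicate 2 or 3 of S134A-GR with TGFβ1 (0.0733 and 0.177, all limma FDR). For TGFβ1 the values of TRAF2 were 0.04 in wt-GR and −0.04 in S134A-GR cells, neither past the test. Of the 10 tested genes nearest TRAF2 in position, 6 were higher in S134A-GR in vehicle, 0 lower and 4 did not pass (median 0.61). Of the 10 nearest TRAF6, 3 were higher, 5 lower and 2 did not pass (median −0.31). Of all genes 25.0% were higher and 26.5% lower. Whether location has a part in the differences of TRAF2 and TRAF6 was not tested.

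TRAF6 is also the adaptor through which TGFβ receptors reach TAK1 and p38 (chromosome 11, 36483769 to 36510272, minus strand). Its wt-GR libraries held 1380, 1322 and 1204 normalized counts in vehicle and 1481, 1473 and 1629 with TGFβ1. Its S134A-GR libraries held 1142, 1149 and 1143 in vehicle and 1171, 1323 and 1187 with TGFβ1. Groups did not overlap in any of the 4 contrasts. With TGFβ1 the level decreased by 19.7% from wt-GR to S134A-GR (log2 fold change −0.32, SE 0.07, limma FDR = 0.00126), and in vehicle it decreased by 11.9% (−0.18, SE 0.07, FDR = 0.0337). The vehicle call was lost without replicate 1 or 2 of wt-GR in vehicle (FDR = 0.127 and 0.0917) and without replicate 1, 2 or 3 of S134A-GR in vehicle (0.0764, 0.0676 and 0.0747). TGFβ1 raised TRAF6 by 17.4% in wt-GR cells (0.23, SE 0.07, limma FDR = 0.0244), a call lost without replicate 2 or 3 of the vehicle group (0.0543 and 0.0828) or replicate 3 of the TGFβ1 group (0.111), and in a fit of the 2 groups alone (0.0672). In S134A-GR cells the value was 0.10 (limma FDR = 0.368), and the responses differed by −0.13 (95% confidence interval −0.34 to 0.07, FDR = 0.697). Of the 75-base stretches of TRAF6 exons 1.06% also occur in the pseudogene TRAF6P1, where counting could split reads.

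PPP5C encodes the phosphatase PP5, which is also a co-chaperone of GR (chromosome 19, 46347087 to 46392981, plus strand). Its libraries ranged from 9527 to 10795 normalized counts, and no contrast passed the test. The 95% confidence interval of the log2 fold change between the lines in vehicle was −0.06 to 0.13. Genes on the opposite strand overlap 6.32% of its exon bases, and the strand setting of the counting is not given, so their reads could be included.

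Counted together, 5 of the 9 genes passed an FDR of 0.05 between the lines in vehicle, where 51.5% of all tested genes did. TXN, TXNRD1 and TRAF2 were higher in S134A-GR (3 genes, 25.0% of all) and MAP3K5 and TRAF6 lower (2 genes, 26.5% of all). With TGFβ1 6 passed, against 48.8% of all genes: the same 3 were higher (23.1% of all), and TXNIP joined MAP3K5 and TRAF6 among the lower (25.7% of all). For TGFβ1 in wt-GR cells 3 passed, against 21.0%, with TRAF6 higher (11.2% of all) and MAP3K5 and TXNRD1 lower (9.82%). For TGFβ1 in S134A-GR cells 4 passed, against 18.7%, with TXN higher (10.0% of all) and MAP3K5, TXNRD1 and TXNIP lower (8.69%). Between the lines in vehicle the share of members lay near that of all genes. All genes tested include weakly expressed ones, whereas the mean levels of the members exceeded 54.2% (TRAF6) to 98.0% (TXNRD1) of them. Shares among genes of like level were not taken, so higher shares of members are not a result about this pathway. The contrasts share libraries, so the counts are not separate pieces of evidence.

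When a log2 fold change of 1 or more in either direction was also required, MAP3K5 alone stayed in both contrasts of the lines, as did 9.51% and 8.46% of all genes. No member stayed for TGFβ1 in either line, where 2.29% and 1.66% of all genes did. The median size of the log2 fold change between the lines in vehicle was 0.15 over the 9 genes and 0.32 over all genes tested, and that of MAP3K5 exceeded 88.9% of all genes. Groups did not overlap for 7 of the 9 genes between the lines in vehicle and for 5 with TGFβ1, against 57.3% and 55.6% of all genes. For TGFβ1 it was 5 in wt-GR and 6 in S134A-GR cells, against 33.9% and 35.6%.

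Whether the lines responded differently to TGFβ1 was tested as an interaction. None of the 9 genes passed in limma, edgeR or DESeq2, in which 0.414%, 0.420% and 1.14% of all genes did. At an unadjusted limma p under 0.05 it was 1 of the 9, TXNRD1, and 9.30% of all genes.

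**Figure D4:**
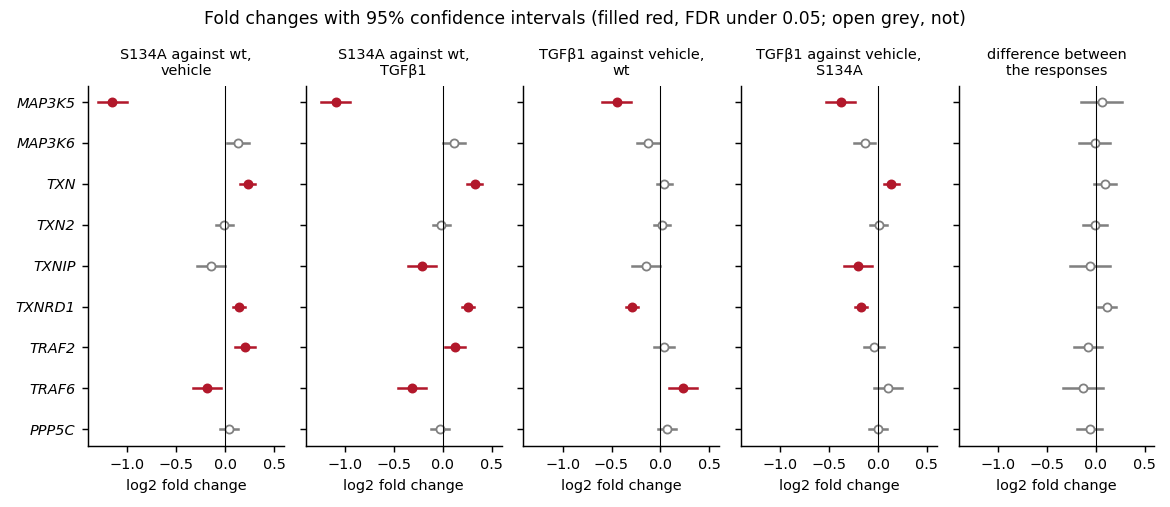
Log2 fold changes of the 9 genes with 95% confidence intervals (limma) in the 5 comparisons; filled red symbols had an FDR under 0.05 and open grey ones did not. MAP3K5 lies at −1.16 and −1.09 between the lines and at −0.44 and −0.38 for TGFβ1, all other members lie within 0.33 of 0, and no symbol is filled for the difference between the responses.

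Levels were also compared by Pearson's r of log2 values over the 12 libraries, which fall into 4 groups and share their normalization, so that r mostly describes group means. MAP3K5 ran against TXN (−0.96) and TRAF2 (−0.84) and with TXNIP (0.79). TXNRD1 ran with MAP3K6 (0.82) and against TRAF6 (−0.90), and TXN2 with PPP5C (0.78). Among 12468 genes with a mean of at least 100 normalized counts, those most like MAP3K5 were TMEM87B, CDC42EP3 and PPM1B (r = 0.997, 0.993 and 0.993), all on chromosome 2. For TXN they were PSMB7, MMP3 and APTX (r = 0.984, 0.980 and 0.977), of which PSMB7 and APTX lie on chromosome 9 like TXN itself. For TXNRD1 they were ZFYVE28, CYP39A1 and NR3C2 (r = 0.985, 0.985 and 0.983), for TXNIP WBP1L, OLFML2A and FBXO25 (r = 0.958, 0.941 and 0.934) and for MAP3K6 ACBD4, LOC102724297 and STAT2 (r = 0.962, 0.954 and 0.948). TRAF2 was most like ORAI1, C14orf80 and RP9 (r = 0.965, 0.956 and 0.955) and TRAF6 most like DDX49, ARFGAP3 and SCYL3 (r = 0.935, 0.933 and 0.931). The values were lowest for PPP5C, with CLTB, C19orf60 and COX5B (r = 0.928, 0.926 and 0.918), and for TXN2, with CD320, SDCCAG8 and COX6B1 (r = 0.860, 0.850 and 0.829), the genes whose own levels varied least.

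The kinases below ASK1 were read from a list of 13 genes that also holds MAP3K15, the third member of the ASK family. MKK3 and MKK6 pass the signal to p38, and MKK4 and MKK7 to JNK. Between the lines in vehicle 2 were higher in S134A-GR, 7 lower and 4 did not pass, where 25.0% and 26.5% of all genes were higher and lower. The median log2 fold change was −0.10 against 0.02 over all genes. MAP2K6 (MKK6) fell from 322 to 150 normalized counts (log2 fold change −1.09, limma FDR = 0.000119), while MAP2K3 (MKK3) rose from 11441 to 16096 (0.49, limma FDR = 1.8e-06). Among the p38 genes MAPK14 (−0.23, limma FDR = 1.95e-05) and MAPK13 (−0.21, limma FDR = 0.00798) were lower and MAPK11 was higher (0.86, limma FDR = 4.23e-06). TGFβ1 in wt-GR cells lowered MAP2K6 (−1.31, limma FDR = 9.34e-05) and MAP2K3 (−0.39, limma FDR = 6.38e-05) and raised MAPK13 (0.33, limma FDR = 0.000941) and MAPK8, a JNK gene (0.13, limma FDR = 0.0271). MAP3K15 stood at 408 against 447 normalized counts and did not pass in any contrast.

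Of 28 genes for ASK1 binding partners, ubiquitin ligases and other regulators, 6 were higher in S134A-GR in vehicle, 11 lower and 11 did not pass (higher and lower, 25.0% and 26.5% of all genes), with a median of −0.05. Glutathione S-transferases, which bind kinases of this cascade, were lower: GSTM1 fell from 181 to 27.8 normalized counts (log2 fold change −2.71, limma FDR = 1.12e-07) and GSTP1 from 10248 to 3938 (−1.38, limma FDR = 2.03e-10). BIRC2, the gene of the ubiquitin ligase cIAP1, fell (−0.89, limma FDR = 6.01e-10). Of the 14-3-3 genes, whose proteins bind ASK1 and hold it inactive, 4 of 7 fell: YWHAQ (−0.70, limma FDR = 1.26e-08), YWHAG (−0.34), YWHAB (−0.30) and YWHAH (−0.28). YWHAZ, for 14-3-3ζ, was at −0.04 (limma FDR = 0.412) and SFN, for 14-3-3σ, at 0.04, and neither passed. YWHAE did not pass either (−1.73, limma FDR = 0.198). It varied widely between libraries, at 4090 ± 6157 normalized counts in wt-GR and 457 ± 135 in S134A-GR in vehicle. TGFβ1 in wt-GR cells changed 8 of these genes, against 21.0% of all genes, 4 of them higher, such as HSP90AB1 (0.22, limma FDR = 0.000316), and 4 lower, such as DAB2IP (−0.18, limma FDR = 0.00518). Of the 5 other TRAF genes TRAF1 was lower in S134A-GR in vehicle (−0.71, limma FDR = 4.97e-05) and the others did not pass. TGFβ1 raised TRAF3 in wt-GR cells (0.21, limma FDR = 0.000688).

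Of 19 other genes of the thioredoxin, glutaredoxin and peroxiredoxin systems, 4 were higher in S134A-GR in vehicle, 8 lower and 7 did not pass (higher and lower, 25.0% and 26.5% of all genes), with a median of −0.07. RRM2, a ribonucleotide reductase subunit, fell (log2 fold change −0.72, limma FDR = 4.54e-09), as did NXN, for nucleoredoxin (−0.40, limma FDR = 4.35e-06). TXNRD2, for the mitochondrial reductase, rose (0.37, limma FDR = 8.37e-05). TGFβ1 in wt-GR cells changed 5 of them, against 21.0% of all genes. NXN was lower (−0.48, limma FDR = 2.61e-06) and GLRX3, for a glutaredoxin, was among 4 that were higher (0.19, limma FDR = 0.00273).

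Of 8 alpha-arrestin and MondoA/MLX genes, relatives and regulators of TXNIP, 4 were higher in S134A-GR in vehicle, 3 lower and 1, ARRDC5, was under the floor of 3 reads (higher and lower, 25.0% and 26.5% of all genes). The median was 0.17. MLXIP, for MondoA, was higher (log2 fold change 0.37, limma FDR = 8.88e-05) and rose with TGFβ1 in wt-GR cells from 10839 to 15948 normalized counts (0.56, limma FDR = 5.94e-06). MLXIPL, for the related factor ChREBP, rose between the lines from 176 to 378 (1.11, limma FDR = 0.000266). MLX, the partner of both, was lower between the lines (−0.28, limma FDR = 4.68e-05). ARRDC4 was higher (0.50, limma FDR = 0.00162) and ARRDC3 lower in S134A-GR (−0.41, limma FDR = 2.84e-05).

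Of 18 genes for NRF2 and its targets, 4 were higher in S134A-GR in vehicle, 9 lower and 5 did not pass (higher and lower, 25.0% and 26.5% of all genes), with a median of −0.23. TXN and TXNRD1 are also NRF2 targets but are not among these 18, and both were higher. NFE2L2, which encodes NRF2, was lower (log2 fold change −0.45, limma FDR = 3.46e-07). So were GCLM, for a subunit of the enzyme that starts glutathione synthesis (−0.61, limma FDR = 1.68e-07), the malic enzyme gene ME1 (−0.53, limma FDR = 2.19e-08) and the heme oxygenase gene HMOX1 (−0.46, limma FDR = 6.65e-06). FTL, for ferritin light chain, was higher (0.47, limma FDR = 4.61e-07). TGFβ1 in wt-GR cells changed 7 of them, against 21.0% of all genes. HMOX1 rose from 2035 to 3595 normalized counts (0.82, limma FDR = 8.29e-08) and GSR, for glutathione reductase, fell (−0.31, limma FDR = 0.000133).

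Of 9 phosphatase genes related to PPP5C, 1 was higher in S134A-GR in vehicle, 6 were lower and 2 did not pass (higher and lower, 25.0% and 26.5% of all genes), with a median of −0.21. PPP1CB (log2 fold change −0.65, limma FDR = 2.18e-07) and PPP2CB (−0.34, limma FDR = 2.4e-05) encode catalytic subunits of PP1 and PP2A. TGFβ1 in wt-GR cells raised PPP4C (0.15, limma FDR = 0.00771) and PPP2CA (0.14, limma FDR = 0.012).

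Over the 100 genes of the 7 lists 66 passed between the lines in vehicle and 63 with TGFβ1, against 51.5% and 48.8% of all genes. For TGFβ1 it was 30 in wt-GR and 32 in S134A-GR cells, against 21.0% and 18.7%. Here too the shares of all genes include weakly expressed ones, and genes of like level were not compared. For the difference between the responses 0 of the 100 passed in limma, against 0.414% of all genes. At an unadjusted limma p under 0.05 it was 6 of the 100, against 9.30% of all genes.

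**Figure D5:**
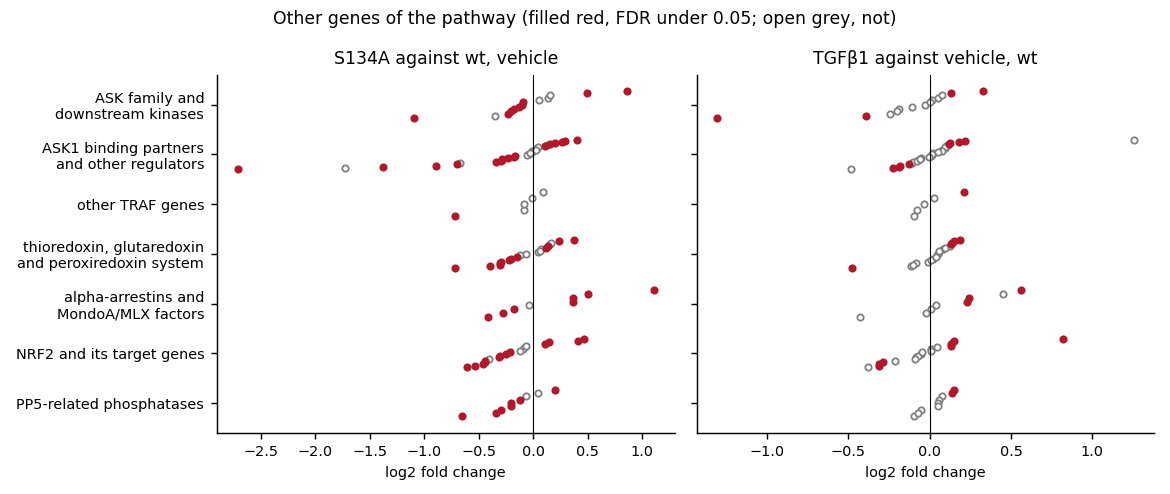
Log2 fold changes of the listed genes, 1 point a gene, for S134A-GR against wt-GR in vehicle (left) and for TGFβ1 against vehicle in wt-GR cells (right); filled red points had an FDR under 0.05 in limma. GSTM1 lies farthest left in the left panel at −2.71, MAP2K6 lies at −1.09 on the left and −1.31 on the right, and the open point farthest right in the right panel is YWHAE, which did not pass.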

How the data were processed

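RNA of MDA-MB-231 cells was sequenced in 12 libraries. The deposited values are a signal: the authors mapped reads to hg38 with HISAT2, counted them with featureCounts and divided the counts by DESeq2 1.22.2 size factors. Annotation and strand setting are not given in the sources used here. Whole reads were recovered for 100% of values (tolerance 0.1), with size factors of 0.614 to 1.40. Floors of 3 reads cover counting error only, and confidence intervals are from limma and rest on the spread between libraries. Values were tested as log2(value + 1) in limma 3.58.1 (R 4.3.3) with 4 group means and a trended prior, and adjusted by Benjamini-Hochberg over 18579 genes (FDR, threshold 0.05). Alternatives were edgeR 4.0.16, DESeq2 1.42.0 and limma-voom on the recovered reads, pseudocounts of 0.5 and 16, other filters, a fold limit, the replicate block, fits of single contrasts and leaving out single libraries. Scripts were tested on simulated data. An exact permutation test of 3 against 3 cannot go below 0.1.

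The members and lists were chosen with earlier results of these data known. Named were the 9 members, called list genes with the largest changes (up to 4 a list, between the lines in vehicle and for TGFβ1 in wt-GR cells), the 3 genes most like each member, and neighbours of MAP3K5. MLX, NFE2L2, YWHAB, YWHAG, YWHAH, YWHAZ, YWHAE, SFN, ARRDC5 and MAP3K15 were named after their values were seen. Levels per kb use GENCODE v44 exon lengths, merged over all transcripts of a gene, and promoters are from RefSeq.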

Additional observations from a re-analysis of the deposited data

How the results depend on the processing

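Of 981 values of the 9 genes under the alternatives that kept the FDR alone, 920 kept their direction and side of the threshold, 32 lost a call, 12 gained one and 17, none of them past the threshold, changed sign. With a fold limit of 1 on the log2 scale, members called were 1 and 1 between the lines and 0 and 0 for TGFβ1, and all genes called were 1767, 1571, 425, 309 and 11 in the 5 comparisons. DESeq2 called 211 genes for the difference between responses, in place of 77. The cause was not tested. With 1 library left out at a time, members called ranged from 4 to 7 and 4 to 7 between the lines, 2 to 4 and 2 to 4 for TGFβ1 (lowest in S134A-GR cells without replicate 2 or 3 in vehicle) and 0 to 0 for the difference. All genes called ranged from 8478 to 9695, 8063 to 9381, 2800 to 4377, 2497 to 3830 and 22 to 166. For the difference they were 27 and 166 without replicate 2 and 3 of wt-GR in vehicle, 22, 36 and 35 without 1, 2 and 3 of wt-GR with TGFβ1, 37, 39 and 38 without those of S134A-GR in vehicle, and 51 and 47 without 2 and 3 of S134A-GR with TGFβ1. Of 235 calls of listed genes and markers 0 changed sign and 188 held under all alternatives that kept the FDR alone.

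The replicate numbers do not pair the samples: over 18 pairs with the same number the mean correlation of deviations was 0.000891 (−0.155 to 0.154), and 3 of 12 libraries were closest to their own number. With the replicate block 5, 6, 3, 4 and 0 members and 9425, 8908, 3678, 3198 and 58 genes were called.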
